A study of Homo sapiens with 12 samples.

Results

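Serum response factor and 9 genes of the contractile actin cytoskeleton, *SRF*, *ACTA2*, *TAGLN*, *CNN1*, *CNN2*, *MYL9*, *TPM1*, *VCL*, *ACTN1* and *FLNA*, were followed across 12 RNA-seq libraries of HLE, a cell line grown from a human hepatocellular carcinoma. The 10 genes were taken by name, as *SRF* itself and well known targets of its actin-regulated arm, out of 26258 gene identifiers in the deposited table by a rule that uses no measured value, although earlier results of these data were known when the rule was set. All 10 passed the filter on low values, which kept 13515 genes with at least 1 CPM (a gene's reads per 1000000 reads counted on genes) in at least 2 libraries. The cells received control siRNA (siCtrl), siRNAs that target the paired coactivators YAP and TAZ (siY/T), or siRNA that targets the transcription factor ATF4 (siATF4). Cells of each transfection were cultured with the vehicle DMSO or with 5 µM Sorafenib, a multikinase inhibitor used in liver cancer, which gave 6 groups with 2 libraries each. No treatment time is given in the labels, and the study's own text gives another dose. All groups are transfections of a single cell line, and knockdown with siRNA lowers its target without removing it. In the sample names the letters SRF stand for Sorafenib, whereas here *SRF* always means the gene.

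SRF is a transcription factor that binds a short A/T-rich element called the CArG box. The myocardin-related coactivators MRTF-A and MRTF-B (*MRTFA*, *MRTFB*) are held by monomeric actin, and when actin is drawn into filaments they are freed to enter the nucleus and join SRF at genes for actin and its binding proteins. A second class of partners, the ternary complex factors ELK1, ELK3 and ELK4, directs SRF to immediate early genes such as *EGR1* and *FOS* downstream of ERK, a kinase of the pathway that Sorafenib acts on through RAF. YAP and TAZ bind DNA through TEAD factors, respond to the same cytoskeletal tension and share a number of target genes with MRTF and SRF. The products followed here are a contractile actin (*ACTA2*), 3 regulators of contractile filaments first described in smooth muscle (*TAGLN*, *CNN1*, *MYL9*), more broadly expressed filament proteins (*CNN2*, *TPM1*), an adhesion protein (*VCL*) and a pair of filament crosslinkers (*ACTN1*, *FLNA*).

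Exact CArG boxes lay in the promoter window of 3 of the 8 members that the RefSeq promoter table holds, and they are shown because the CArG box is the element that SRF binds. The members were chosen as well known SRF targets, so their share with a box is no independent result. Each window spans 250 bases before to 50 after the gene's start on GRCh38.p14, and *TAGLN* and *MYL9* have no entry. *SRF* itself carried a pair of boxes close to its start, at positions -30 to -21 and -10 to -1, *CNN2* carried a box at -89 to -80 and *FLNA* a box at -94 to -85. Each run is printed 5′ to 3′ on the strand of its gene, with the CArG box in capitals.
SRF, upstream box, chr6:43171229-43171258, plus strand: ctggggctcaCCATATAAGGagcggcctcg
SRF, downstream box, chr6:43171249-43171278, plus strand: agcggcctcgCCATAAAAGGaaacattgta
CNN2, chr19:1026509-1026538, plus strand: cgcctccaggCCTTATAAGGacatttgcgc
FLNA, chrX:154374709-154374738, minus strand: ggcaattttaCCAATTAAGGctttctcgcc
Among all 27305 promoter windows of the table, 351 held an exact CArG box on either strand, which is 1.285%. With at most 1 mismatch allowed, 19.27% of all windows held a box, and still 3 of the 8 members. The core of the TEAD element, GGAATG on either strand, was present in the window of *VCL* alone among the 8, against 14.05% of all windows. A match is a match of letters, and the other members may hold such elements outside these windows.

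Reads on genes numbered 41408348 to 53619732 per library, which put the worth of 1 read at 0.0186 to 0.0241 CPM. With DMSO the siRNA targets were low where the labels say so, and their levels in the same knockdowns with Sorafenib are not reported here. *YAP1* was at 46.6 and 57.7 CPM in siY/T DMSO cells against 277 and 280 in siCtrl DMSO cells, and *ATF4* at 96.2 and 101 CPM in siATF4 DMSO cells against 248 and 249. *WWTR1*, the gene for TAZ, was at 53.3 and 68.6 CPM in siY/T DMSO cells against 170 and 173 in siCtrl DMSO cells, and it was also lower in siATF4 DMSO cells, at 107 and 104 CPM (limma, log2 fold change -0.70, Benjamini-Hochberg adjusted p = 1.29e-05). *ATF4* in turn was lower in siY/T cells, at 207 and 197 CPM in DMSO (log2 fold change -0.30) and, in Sorafenib, at 317 and 314 CPM against 484 and 492 in siCtrl cells (limma, log2 fold change -0.63, adjusted p = 1.84e-07). The pair of siY/T DMSO libraries differed from each other more than the other pairs did, with an SD of 0.190 for the log2 difference between them against 0.110 to 0.132 in the other 5 groups. Of 5 hepatocyte markers, *ALB* reached at most 0.0214 CPM, *AFP* 0.0390, *APOA1* and *TTR* 0.117 each, and *SERPINA1* 2.32 CPM. With DMSO their sum was 0.168 to 0.288 CPM in siCtrl, 1.69 to 2.44 in siY/T and 0.0214 to 0.0594 CPM in siATF4 libraries. *VIM* lay between 1952 and 2916 CPM and *KRT8* between 655 and 2558 CPM, while *EPCAM* reached at most 0.701 CPM. Of 6 smooth muscle markers, *MYH11*, *DES* and *MYOCD* reached at most 4 reads in a library, *LMOD1* at most 16 and *SYNPO2* at most 39, whereas *SMTN*, which encodes smoothelin, lay between 48.5 and 131 CPM.

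In siCtrl DMSO cells the levels spanned more than 3 orders of magnitude. Per kilobase of the MANE Select transcript, *TPM1* was highest with 1033 CPM, followed by *FLNA* with 288, *MYL9* with 216, *VCL* with 131 and *ACTN1* with 130.4. *CNN2* stood at 93.3 CPM per kilobase, *SRF* at 17.5, *CNN1* at 12.7, *TAGLN* at 5.13 and *ACTA2* at 0.435. The contractile genes first described in smooth muscle were thus the rare ones apart from *MYL9*. The order depends on the transcript chosen, since *TPM1* is measured here against a transcript of 1.217 kilobases and *TAGLN* against one of 3.786. Reads were counted over all mRNA exons of a gene, and those of *TPM1* are longer, with 2633 bases shared with an antisense gene alone. The top place of *TPM1* and the span of more than 3 orders of magnitude may thus come from the short transcript. Over the 12 libraries the members gathered between 824 reads (*ACTA2*) and 1714671 reads (*FLNA*).

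*SRF* (chromosome 6, bases 43139007 to 43149244 on GRCh37, plus strand) encodes the transcription factor itself. Its level was 74.5 and 73.7 CPM in siCtrl DMSO cells and 74.7 and 76.5 CPM in siCtrl Sorafenib cells. After siY/T it was 69.3 and 66.7 CPM in DMSO and 59.8 and 58.9 CPM in Sorafenib. After siATF4 it was 81.1 and 84.8 CPM in DMSO and 75.7 and 81.8 CPM in Sorafenib. The gene therefore moved little, by 1.40-fold between the highest and the lowest group mean, with siY/T Sorafenib cells lowest and clear of every other group, and the siATF4 DMSO, siATF4 Sorafenib and siCtrl Sorafenib libraries running into one another. With 2 libraries per group, groups can lie apart by chance. The share of all genes whose groups do so is not given, here or for the members below.

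*ACTA2* (chromosome 10, bases 90694831 to 90751096, minus strand) encodes smooth muscle actin alpha. It was at 0.597 and 0.577 CPM in siCtrl DMSO cells, on 32 and 26 reads, and at 1.57 and 1.67 CPM in siCtrl Sorafenib cells, on 78 and 82 reads. In siY/T cells it was at 2.01 and 2.13 CPM with DMSO and at 2.59 and 2.83 CPM with Sorafenib, on 88 to 121 reads. In siATF4 cells it was at 0.964 and 0.713 CPM with DMSO and at 1.04 and 0.792 CPM with Sorafenib. Both siY/T groups lay above all others and siCtrl DMSO cells below all others, while both siATF4 groups overlapped. The gene stayed under the 1 CPM of the filter in all siCtrl DMSO and siATF4 DMSO libraries and in siATF4 Sorafenib replicate 2. It was thus tested only through groups where it is higher, which favours calls against the low groups. The widest range of the 10 genes, 4.62-fold between group means, thus belongs to the gene with the fewest reads, and changes on the log2(CPM + 0.5) scale understate it. The actin genes resemble one another, and only uniquely mapped reads were counted. Reads that fit several actin genes equally well are thus not in these values, and their number was not examined. The exons of *ACTA2* also overlap those of *FAS* on the opposite strand over 21.7% of their length. *FAS* lay between 5.29 and 8.84 CPM, and whether the counting used strand is not stated in the sources used here.

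*TAGLN* (chromosome 11, bases 117070086 to 117078180, plus strand) encodes transgelin, a filament-binding protein of contractile cells. Its level was 20.1 and 18.8 CPM in siCtrl DMSO cells and 21.4 and 24.7 CPM in siCtrl Sorafenib cells. In siY/T cells it was 20.8 and 18.9 CPM with DMSO but 8.39 and 8.95 CPM with Sorafenib. In siATF4 cells it was 7.07 and 9.53 CPM with DMSO and 10.8 and 13.2 CPM with Sorafenib. Both siATF4 groups and siY/T cells with Sorafenib were low, the last overlapping siATF4 cells with DMSO, and siY/T DMSO libraries overlapped siCtrl DMSO libraries. *PCSK7* overlaps 40.4% of the *TAGLN* exons on the opposite strand. Its mean level was 55.6 CPM in siCtrl cells with either medium, 76.5 and 63.2 CPM after siY/T and 75.3 and 74.0 CPM after siATF4, with DMSO and Sorafenib, so it was higher than in siCtrl cells in each group where *TAGLN* was low, and also in siY/T cells with DMSO, where *TAGLN* was not.

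*CNN1* (chromosome 19, bases 11649582 to 11661138, plus strand) encodes calponin 1, which restrains myosin activity on actin filaments. In siCtrl cells it was at 18.7 and 19.5 CPM with DMSO and at 34.3 and 36.7 CPM with Sorafenib. In siY/T cells the order turned, with 25.9 and 23.7 CPM in DMSO and 13.0 CPM in both Sorafenib libraries. In siATF4 cells it was at 20.7 and 24.0 CPM with DMSO and at 35.4 and 37.0 CPM with Sorafenib. Sorafenib libraries were thus the highest of all in siCtrl and siATF4 cells, where they overlapped, and the lowest of all in siY/T cells. *CNN2* (chromosome 19, bases 1026585 to 1039067, plus strand), a calponin found in many cell types, behaved otherwise. It was at 205 and 196 CPM (DMSO) and 220 and 223 CPM (Sorafenib) in siCtrl cells, and at 211 and 204 CPM (DMSO) and 178 and 183 CPM (Sorafenib) in siY/T cells. It was lowest in siATF4 cells, at 112 and 107 CPM with DMSO and at 159 and 154 CPM with Sorafenib. Both siATF4 groups lay below every other library, and only siCtrl DMSO and siY/T DMSO libraries overlapped.

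*MYL9* (chromosome 20, bases 35169900 to 35179850, plus strand) encodes a regulatory light chain of non-muscle and smooth muscle myosin. It was at 611 and 590 CPM in siCtrl DMSO cells and at 794 and 823 CPM in siCtrl Sorafenib cells. It reached 1123 and 1068 CPM in siY/T DMSO cells and 793 and 797 CPM in siY/T Sorafenib cells. It was at 362 and 376 CPM in siATF4 DMSO cells and at 419 and 446 CPM in siATF4 Sorafenib cells. The group means spanned 2.97-fold, with siY/T DMSO libraries clear at the top, both siATF4 groups at the bottom and the Sorafenib libraries of siCtrl and siY/T cells overlapping. *TPM1* (chromosome 15, bases 63334819 to 63364114, plus strand) encodes a tropomyosin that lies along actin filaments. It was at 1258 and 1257 CPM in siCtrl cells with DMSO and at 1003 and 1007 CPM in those with Sorafenib, and at 1132 and 1089 CPM in siY/T DMSO and 837 and 845 CPM in siY/T Sorafenib cells. It was at 604 and 647 CPM in siATF4 DMSO and 810 and 787 CPM in siATF4 Sorafenib cells. *TPM1* alone among the 10 was highest in siCtrl DMSO cells, none of its 6 groups overlapped a neighbour, and Sorafenib went with less of it in siCtrl and siY/T cells but with more of it in siATF4 cells.

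*VCL* (chromosome 10, bases 75754951 to 75881121, plus strand) encodes vinculin, which ties adhesion sites to actin. It was at 741 and 695 CPM in siCtrl DMSO, 829 and 819 in siCtrl Sorafenib, 893 and 876 in siY/T DMSO and 807 and 778 CPM in siY/T Sorafenib cells. It was at 384 and 381 CPM in siATF4 DMSO and 518 and 498 CPM in siATF4 Sorafenib cells. Both siATF4 groups lay below every other library, and no group overlapped its neighbour in the order. *AP3M1* overlaps 16.6% of the *VCL* exons on the opposite strand, and its mean level was 155 and 145 CPM in siCtrl, 129 and 148 in siY/T and 172 and 175 CPM in siATF4 cells with DMSO and Sorafenib. *ACTN1* (chromosome 14, bases 69340845 to 69446157, minus strand) encodes alpha-actinin 1, a crosslinker of filaments at adhesions. Its levels were 491 and 479 CPM in siCtrl DMSO, 469 and 489 in siCtrl Sorafenib, 461 and 439 in siY/T DMSO and 387 and 376 CPM in siY/T Sorafenib cells. They were 498 and 495 CPM in siATF4 DMSO and 519 and 566 CPM in siATF4 Sorafenib cells. The order of the groups differed from that of *VCL*, since *ACTN1* had siATF4 groups on top, siY/T Sorafenib cells lowest and both siCtrl groups overlapping. With Sorafenib both genes were lower than with DMSO in siY/T cells and higher in siATF4 cells.

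*FLNA* (chromosome X, bases 153576892 to 153603002, minus strand) encodes filamin A, a large crosslinker that also binds membrane receptors, and gave the most reads of the 10. It was at 2530 and 2368 CPM in siCtrl cells with DMSO and at 3193 and 3389 CPM in those with Sorafenib. It was at 3812 and 3678 CPM in siY/T DMSO and 3240 and 3068 CPM in siY/T Sorafenib cells, and at 2240 and 2284 CPM in siATF4 DMSO and 2867 and 3124 CPM in siATF4 Sorafenib cells. The siY/T DMSO libraries were highest and the siATF4 DMSO libraries lowest, while the Sorafenib libraries of the siCtrl, siY/T and siATF4 cells formed an overlapping run.

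**Figure D1:**
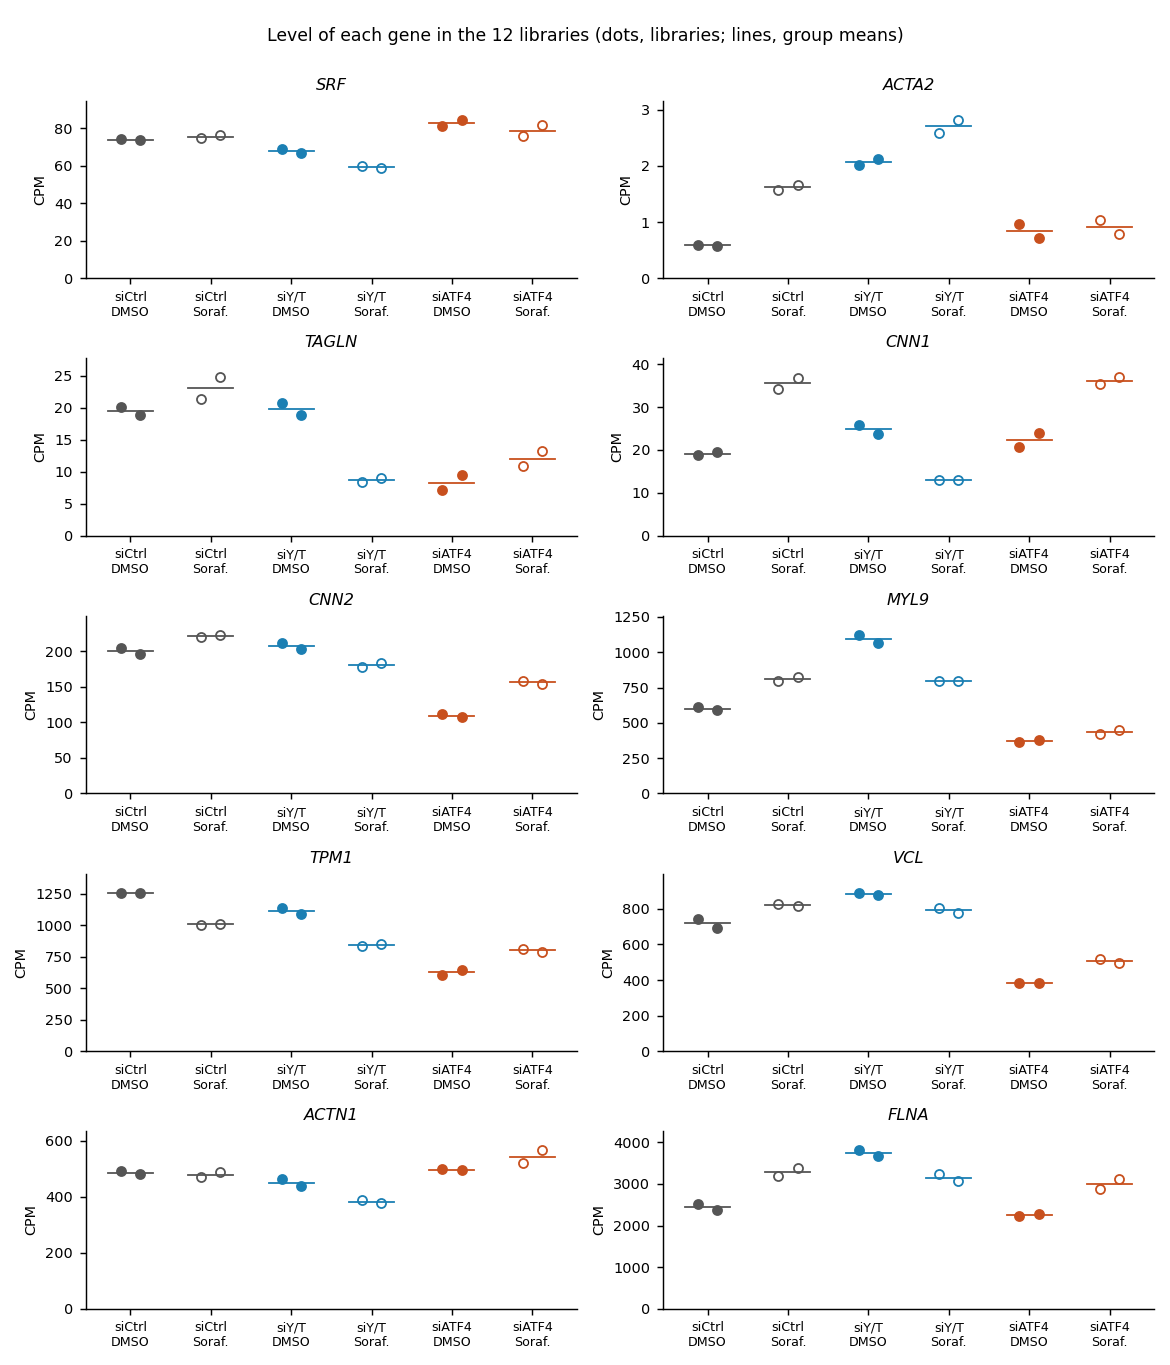
CPM (y axes, linear and starting at 0) of each of the 10 genes in the 6 groups (x axes), where dots are libraries, lines are group means, filled dots are DMSO and open dots are Sorafenib. *CNN1* fell to 13.0 CPM in both siY/T Sorafenib libraries while it was at 34.3 CPM or more in siCtrl and siATF4 Sorafenib libraries, and *MYL9* was highest, at 1068 and 1123 CPM, in siY/T DMSO libraries.

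The first comparison asks what loss of YAP and TAZ does to these genes in the absence of drug. *ACTA2*, *MYL9* and *FLNA* rose in siY/T DMSO cells and no member passed the call in the other direction. Changes were fitted with limma on log2(CPM + 0.5) over all 13515 genes and called at an unadjusted p under 0.05 and a log2 change of at least 0.58 in size. *ACTA2* rose by 1.24 ± 0.13 (log2 fold change ± SE, means of 2 against 2 libraries, limma with Benjamini-Hochberg adjusted p = 3.21e-06), *MYL9* by 0.87 ± 0.04 (9.42e-09) and *FLNA* by 0.61 ± 0.05 (8.89e-07). For each gene the SE rests on 1 estimate of the spread shared by all 12 libraries. It may understate the spread of the siY/T DMSO pair, which differed most over all genes. Thus 3 of 10 members were raised, where 11.0% of all genes tested were, and 0 were lowered, where 3.61% of all genes were. Of the 3, *ACTA2* was under 1 CPM in siCtrl DMSO cells and was tested only through other groups, so the filter favoured its rise. At an unadjusted p under 0.05 alone, 3 members were lower in limma, and edgeR and DESeq2 each called 0 members lowered. *CNN1* was 0.37 ± 0.07 higher (adjusted p = 0.000841) and *VCL* 0.30 ± 0.04 higher (adjusted p = 4.35e-05) without reaching the size of the call. The values were -0.18 ± 0.04 for *TPM1*, -0.12 ± 0.05 for *SRF* and -0.11 ± 0.05 for *ACTN1*. *CNN2* and *TAGLN*, at 0.05 ± 0.04 and 0.03 ± 0.13, had libraries that overlapped between the groups, and their sign turned with TMM scaling. The call of *FLNA* was lost with TMM scaling, in edgeR, in DESeq2 and without replicate 2 of siCtrl DMSO, with values down to 0.54. Of 4 epithelial and mesenchymal markers 3 were tested and 2 fell in the same libraries, *KRT8* from 2284 and 2205 to 684 and 655 CPM and *KRT18* from 1047 and 1017 to 339 and 320.4 CPM. The summed level of *KRT8*, *KRT18*, *EPCAM* and *VIM* was 5503 to 5707 CPM in siCtrl DMSO and 3315 to 3635 CPM in siY/T DMSO libraries, and their part in the result was not tested. The study's methods describe biological replicates, though in another number than the libraries here. The labels do not say that the 2 libraries of a group came from separate cultures, and if they did not, p-values measure only the spread between these libraries, which may be technical. In bulk RNA, fewer cells of a kind and less RNA per cell cannot be told apart.

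The same knockdown was then compared within Sorafenib. *CNN1* and *TAGLN* fell in siY/T Sorafenib cells against siCtrl Sorafenib cells, *ACTA2* rose, and the others stayed under the size of the call. *CNN1* fell by 1.41 ± 0.07 on the log2 scale (limma, adjusted p = 1.56e-08), with a 95% interval from -1.57 to -1.25. *TAGLN* fell by 1.36 ± 0.13 (adjusted p = 1.96e-06), with an interval from -1.63 to -1.09. *ACTA2* was 0.60 ± 0.13 higher (adjusted p = 0.00188), close to the size limit, and its call was lost with a pseudocount of 1, with TMM scaling, with quantile normalization and without siCtrl Sorafenib replicate 1 or siY/T Sorafenib replicate 2, with values from 0.50 to 0.71. Lowered members were 2 of 10, against 3.84% of all genes, and raised members 1 of 10, against 6.11%. *SRF* itself was 0.35 ± 0.05 lower (adjusted p = 7.16e-05), *ACTN1* 0.33 ± 0.05 lower (8.93e-05), *CNN2* 0.29 ± 0.04 lower (8.25e-05) and *TPM1* 0.26 ± 0.04 lower (0.000237), all short of the size limit. *MYL9* and *FLNA*, which rose in DMSO, were at -0.02 ± 0.04 and -0.06 ± 0.05 with overlapping libraries, and *VCL* was at -0.06 ± 0.04. *KRT8* and *KRT18* changed by -1.34 and -1.16 in these libraries, and the summed level of the 4 epithelial and mesenchymal markers was 6057 to 6209.8 CPM in siCtrl and 3762 to 3803 CPM in siY/T cells with Sorafenib. Their part was not tested.

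Whether the siY/T effect differed between Sorafenib and DMSO was tested as the difference between the effects, called at an adjusted p under 0.05. All 10 differences were negative, where the median over all genes was itself -0.02. Of the 10, 9 passed, against 14.2% of all genes lower in this sense, while 0 members and 7.81% of all genes were higher. At an unadjusted p under 0.05 no further member passed in limma in either direction, and edgeR and DESeq2 each called 7 members lower and 0 higher. The difference was -1.78 ± 0.10 for *CNN1* (limma, adjusted p = 1.74e-06), -1.39 ± 0.18 for *TAGLN* (0.000337) and -0.89 ± 0.06 for *MYL9* (8.89e-06). It was -0.67 ± 0.08 for *FLNA* (0.000188), -0.64 ± 0.18 for *ACTA2* (0.0242), -0.36 ± 0.06 for *VCL* (0.00146) and -0.34 ± 0.06 for *CNN2* (0.0019). *SRF*, at -0.22 ± 0.07 (0.0352), and *ACTN1*, at -0.22 ± 0.07 (0.0345), lost the call with TMM scaling and in both count tests. *TPM1* did not pass, with a difference of -0.08 ± 0.06, an interval from -0.20 to 0.05 and an adjusted p of 0.369. Leaving out siCtrl DMSO replicate 1 or 2, siCtrl Sorafenib replicate 1 or 2, or siY/T Sorafenib replicate 1 left 6 members in place of 9, with *ACTA2*, *SRF* and *ACTN1* the ones lost.

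**Figure D2:**
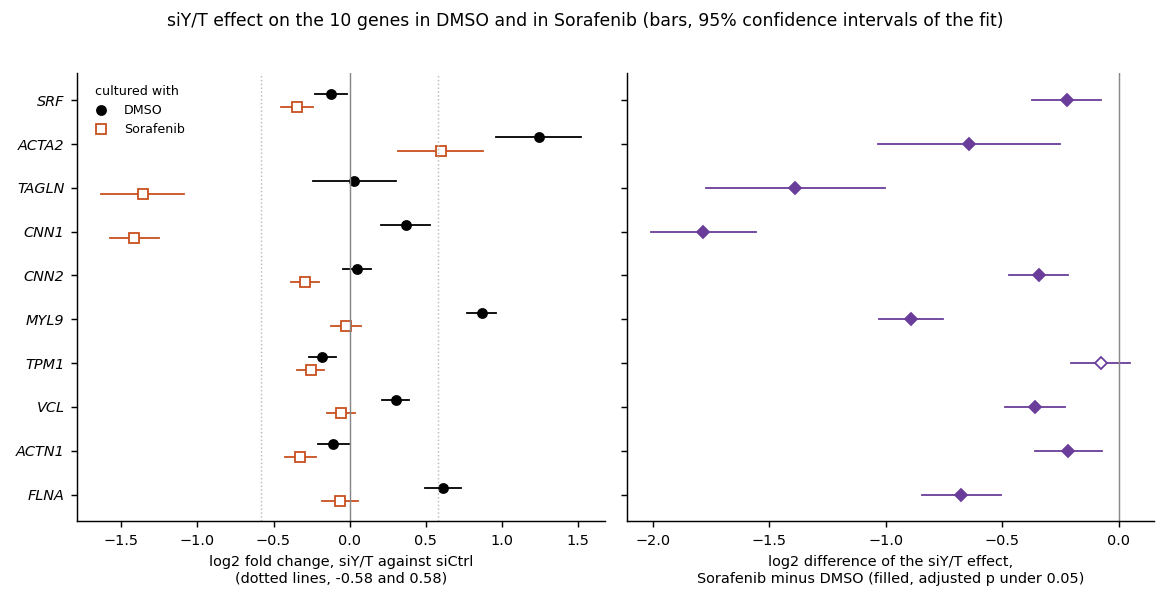
Left, log2 fold change of siY/T against siCtrl (x axis) for each gene (y axis) in DMSO (filled circles) and in Sorafenib (open squares), and right, the difference between these effects, with 95% confidence intervals as bars. All 10 differences lie below 0, from -1.78 for *CNN1* to -0.08 for *TPM1*, whose open diamond marks an adjusted p of 0.369. The median over all genes was -0.02.

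Loss of ATF4 in DMSO was compared next. *TAGLN*, *TPM1*, *VCL*, *CNN2* and *MYL9* fell in siATF4 DMSO cells, which takes in contractile, filament-lining and adhesion genes but neither *SRF* nor the crosslinkers. *TAGLN* fell by 1.19 ± 0.13 on the log2 scale (limma, adjusted p = 2.2e-06), *TPM1* by 1.01 ± 0.04 (3.45e-10) and *VCL* by 0.91 ± 0.04 (9.1e-10). *CNN2* fell by 0.87 ± 0.04 (1.33e-09) and *MYL9* by 0.70 ± 0.04 (1.83e-08). Lowered members were 5 of 10, where 14.1% of all genes were lowered, and raised members 0, where 8.57% were raised. At an unadjusted p under 0.05 alone 3 members were higher in limma, and edgeR and DESeq2 each called 0 raised. *SRF* was at 0.16 ± 0.05 (adjusted p = 0.0096), *CNN1* at 0.22 ± 0.07 (0.0186) and *ACTA2* at 0.29 ± 0.13 (0.0569). *FLNA* was at -0.11 ± 0.05 (0.0815) and *ACTN1* at 0.03 ± 0.05 (0.549). Fibroblast-type genes moved in the same libraries. With DMSO the summed level of *PDGFRB*, *DCN*, *LUM*, *COL1A1* and *COL1A2* was 611 to 641 CPM after siCtrl, 1038 to 1072 CPM after siY/T and 147 to 168 CPM after siATF4, nearly all of it *COL1A2*, while *DCN* and *LUM* stayed under 0.386 CPM. *KRT8* changed by -0.94 and *KRT18* by -0.01, and *SMTN*, the 1 smooth muscle marker that was tested, was at 129 and 131 CPM against 92.3 and 85.7 (log2 fold change 0.54). The part of these markers in the result was not tested.

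In Sorafenib, siATF4 cells had less *TAGLN*, *MYL9*, *VCL* and *ACTA2* than siCtrl cells. *TAGLN* fell by 0.91 ± 0.13 (limma, adjusted p = 2.07e-05), *MYL9* by 0.90 ± 0.04 (1.18e-09) and *VCL* by 0.70 ± 0.04 (7.41e-09). *ACTA2* fell by 0.59 ± 0.13 (0.00103), at the limit of the call, which was lost with a pseudocount of 1, with quantile normalization and without replicate 2 of siCtrl Sorafenib or of siATF4 Sorafenib, with values from -0.81 to -0.24. Lowered members were 4 of 10, against 18.7% of all genes, and raised members 0, against 10.3%. At an unadjusted p under 0.05 alone 1 member was higher in limma, *ACTN1* at 0.18 ± 0.05, and edgeR and DESeq2 each called 0 raised. *CNN2* was 0.50 ± 0.04 lower (1.76e-07) and *TPM1* 0.33 ± 0.04 lower (8.86e-06), both under the size limit. *CNN1*, at 0.03 ± 0.07, and *SRF*, at 0.06 ± 0.05, had overlapping libraries, and *FLNA* was at -0.14 ± 0.05. The summed fibroblast-type genes were at 906 to 915 CPM in siCtrl Sorafenib, 1311 to 1340 in siY/T Sorafenib and 267 to 284 CPM in siATF4 Sorafenib cells. *KRT8* changed by -0.61 and *KRT18* by 0.54, and *SMTN* rose by 0.75, from 53.9 and 56.8 to 89.2 and 97.8 CPM.

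The siATF4 effect differed between Sorafenib and DMSO for 5 members, in both directions. It was lower in Sorafenib for *ACTA2*, by a difference of -0.88 ± 0.18 (limma, adjusted p = 0.00196), and for *MYL9*, -0.20 ± 0.06 (0.0226). It was higher, that is a smaller fall, for *TPM1*, 0.68 ± 0.06 (3.85e-06), *CNN2*, 0.37 ± 0.06 (0.000358), and *VCL*, 0.21 ± 0.06 (0.0134). The 2 lower members stand against 21.8% of all genes and the 3 higher members against 19.3%, so differences of this kind were common in the whole table. *TAGLN*, *CNN1*, *SRF*, *FLNA* and *ACTN1* did not pass. Without siCtrl Sorafenib replicate 2 the number fell from 5 to 3, with *MYL9* and *VCL* lost. *MYL9* also lost its call with no filter on low values and without siATF4 Sorafenib replicate 1, siCtrl DMSO replicate 2 or siATF4 DMSO replicate 2. *VCL* also lost its call without siCtrl DMSO replicate 1 or siATF4 Sorafenib replicate 1.

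**Figure D3:**
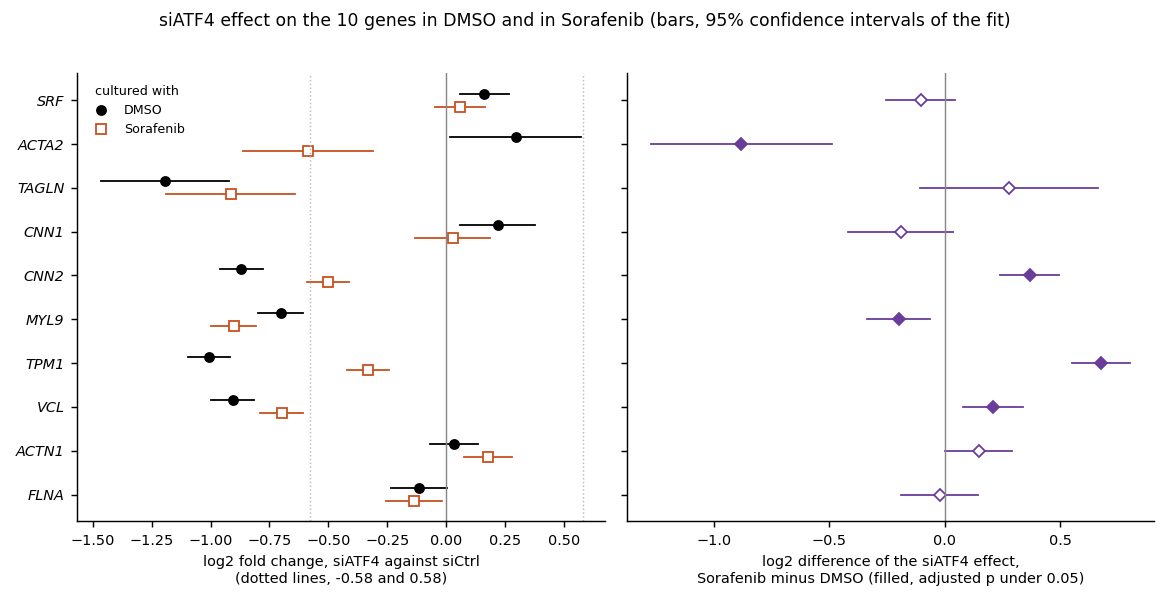
Left, log2 fold change of siATF4 against siCtrl (x axis) for each gene (y axis) in DMSO (filled circles) and in Sorafenib (open squares), and right, the difference between these effects (filled, adjusted p under 0.05), with 95% confidence intervals as bars. *TAGLN*, *MYL9* and *VCL* lie beyond -0.58 in both media, whereas *TPM1* goes from -1.01 in DMSO to -0.33 in Sorafenib.

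Sorafenib itself was compared with DMSO within each transfection. In siCtrl cells it went with more *ACTA2*, by 0.96 ± 0.13 (limma, adjusted p = 2.5e-05), and more *CNN1*, by 0.88 ± 0.07 (4.62e-07). These were 2 of 10 raised against 12.3% of all genes, and 0 lowered against 5.15%. The filter favoured the rise of *ACTA2* here too, since it was under 1 CPM in siCtrl DMSO cells. Only *TPM1*, at -0.32 ± 0.04, was lower at an unadjusted p under 0.05 in limma, and edgeR and DESeq2 each called 0 lowered. *FLNA* and *MYL9* were both at 0.43, *TAGLN* at 0.24, *VCL* at 0.20 and *CNN2* at 0.14, while *SRF* was at 0.03 with a sign that turned with TMM scaling and *ACTN1* at -0.02. In siY/T cells the drug went with less *TAGLN*, by -1.15 ± 0.13 (adjusted p = 9.38e-06), and less *CNN1*, by -0.91 ± 0.07 (7.02e-07). These were 2 of 10 lowered against 4.14% of all genes, and 0 raised against 5.83%, with *ACTA2* alone higher at an unadjusted p under 0.05 in limma, at 0.32 ± 0.13, and 0 raised in edgeR and in DESeq2. The remaining members of siY/T cells lay between -0.46 for *MYL9* and -0.16 for *VCL*, *SRF* at -0.19 among them. In siATF4 cells *CNN1* rose by 0.69 ± 0.07 (9.03e-06), 1 of 10 against 5.68% of all genes, and 0 were lowered against 2.95%. No member was lower there at an unadjusted p under 0.05 in limma, and edgeR and DESeq2 each called 0 lowered. Under the size limit in siATF4 cells were *TAGLN* at 0.52, *CNN2* at 0.51, *VCL* at 0.41, *FLNA* at 0.40, *TPM1* at 0.35 and *MYL9* at 0.23. The call of *TAGLN* there turned on 1 library, since it passed without siATF4 Sorafenib replicate 1 or without siATF4 DMSO replicate 2, at up to 0.72.

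The knockdowns were set directly against each other as well. In DMSO, siATF4 cells had less *MYL9* than siY/T cells, by -1.57 ± 0.04, less *TAGLN*, -1.22 ± 0.13, less *VCL*, -1.21 ± 0.04, and less *ACTA2*, -0.95 ± 0.13. *CNN2*, at -0.92 ± 0.04, *TPM1*, at -0.83 ± 0.04, and *FLNA*, at -0.73 ± 0.05, were lower too, and the adjusted p-values of these 7 in limma ran from 3.11e-12 for *MYL9* to 1.47e-05 for *ACTA2*. That is 7 of 10 lowered against 22.7% of all genes and 0 raised against 13.0%. Among the 7, *ACTA2* was under 1 CPM in siATF4 DMSO cells, so the filter favoured its call. At an unadjusted p under 0.05 alone, 2 members were higher in limma, *SRF* at 0.29 ± 0.05 and *ACTN1* at 0.14 ± 0.05, and edgeR and DESeq2 each called 0 raised. The call of *ACTA2* was lost with quantile normalization, at -0.55. In Sorafenib *ACTA2* was lower by -1.18 ± 0.13, *MYL9* by -0.88 ± 0.04 and *VCL* by -0.64 ± 0.04, and *CNN1* was higher by 1.44 ± 0.07 (limma, adjusted p = 7.92e-10). These were 3 of 10 lowered against 23.7% and 1 of 10 raised against 14.8% of all genes. *ACTN1* was at 0.50, *TAGLN* at 0.44 and *SRF* at 0.40 there. The call of *VCL* was lost with TMM scaling, in edgeR and in DESeq2, with values from -0.67 to -0.58, and *TAGLN* gained a call with quantile normalization or without siATF4 Sorafenib replicate 1.

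Among themselves the 10 genes did not form a single block. Over the 12 libraries, which share 6 groups and so are not independent points, Pearson's r of log2(CPM + 0.5) was 0.95 between *MYL9* and *VCL*, 0.95 between *CNN2* and *VCL*, 0.88 between *CNN2* and *TPM1* and 0.84 between *TAGLN* and *TPM1*. *SRF* went most closely with *ACTN1*, at 0.92, and opposite to *ACTA2*, at -0.81, to *VCL*, at -0.70, and to *MYL9*, at -0.69. Of the 45 pairs, 28 had a positive r. The genes whose profile was closest to *SRF* among 11143 genes that averaged 5 CPM or more were *JUN* (r = 0.98), *NKX2-5* (0.98) and *C19orf25* (0.98), and those closest to the mean of the members' standardised values were *ECE1* (0.95), *CNTROB* (0.94) and *TRAM2* (0.93). These are descriptions over 12 libraries in 6 groups.

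**Figure D4:**
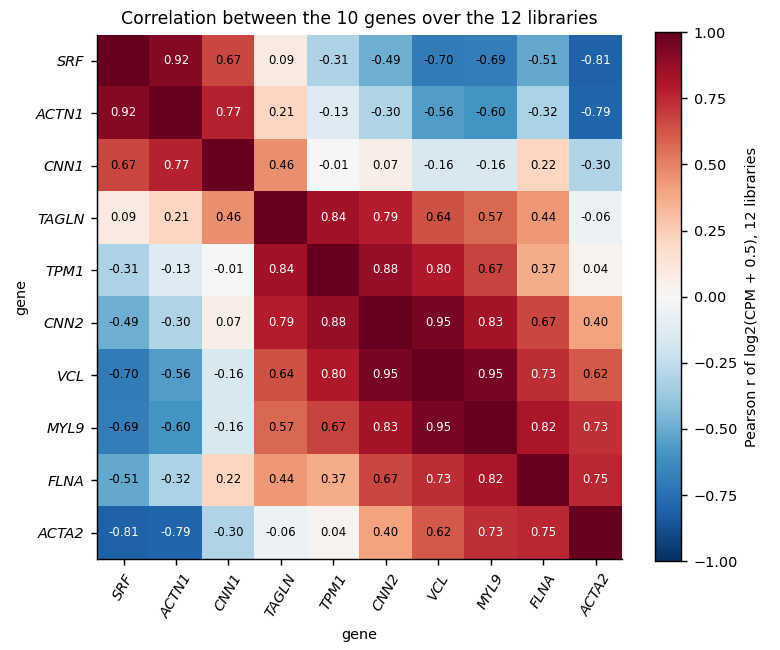
Pearson's r (colour and printed value) of log2(CPM + 0.5) over the 12 libraries for each pair of the 10 genes on both axes. *CNN2*, *VCL* and *MYL9* stand together with r between 0.83 and 0.95, while *SRF* and *ACTN1* (0.92) stand apart and opposite to *ACTA2* (-0.81 and -0.79).

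The other genes of the pathway were described from lists by their counts and medians. Of 8 coactivators and cofactors of SRF 6 were tested. In siY/T cells their median log2 change was 0.04 in DMSO and 0.02 in Sorafenib, against 0.07 and 0.05 over all genes, and the 2 that reached an adjusted p under 0.05 in DMSO stayed under the size of the call. In siATF4 DMSO cells *MRTFB* fell from 44.3 and 46.1 CPM to 27.2 and 27.9 CPM, a log2 change of -0.70, and *ELK4* fell by 0.62. *ELK3*, a ternary complex factor, rose from 167 and 170 CPM to 399 and 410 CPM, by 1.26. In siATF4 Sorafenib cells *MRTFA* fell from 61.2 and 64.1 to 37.0 and 37.5 CPM, a log2 change of -0.74, while *ELK3* was 1.52 higher.

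Of 25 other MRTF/SRF targets 23 were tested. In siY/T DMSO cells 6 fell, against 3.61% of all genes, and 4 rose, against 11.0%, with a median of 0.00. *CCN2* and *CCN1*, matricellular genes that YAP and TAZ also drive, changed by -2.04 and -1.92, *CCN1* from 285 and 292 CPM to 77.5 and 74.0 CPM. *FLNC*, the muscle-type filamin, fell by 0.96 on the log2 scale, from 2100 and 2042 CPM to 1090 and 1033 CPM, in the cells in which *FLNA* rose. In siY/T Sorafenib cells 9 fell, against 3.84% of all genes, with a median of -0.36 against 0.05 over all genes, among them *CCN1* (-1.81), *CCN2* (-1.51), *FLNC* (-1.38) and *TAGLN2* (-1.17). *TAGLN2*, a relative of *TAGLN*, was at 440.5 and 460 CPM in siCtrl cells and at 201 and 199 CPM in siY/T cells with Sorafenib. For the difference between the siY/T effects, 12 of the 23 were lower, against 14.2% of all genes, and 2 higher, against 7.81%, with a median of -0.30, and *PDLIM7* (-0.90), *TGFB1I1* (-0.89) and *TPM4* (-0.73) were the largest. In siATF4 cells *CCN2* rose by 1.71 in DMSO and by 2.66 in Sorafenib, and *CCN1* by 0.79 and 1.30, whereas *THBS1* fell by 1.96 in DMSO and *TGFB1I1* fell by 1.02 in Sorafenib. The counts in siATF4 cells were 3 of 23 lowered and 3 raised in DMSO, against 14.1% and 8.57% of all genes, and 4 lowered and 4 raised in Sorafenib, against 18.7% and 10.3%, so the lowered shares were no larger than over all genes.

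Immediate early SRF targets, the other arm of the factor, were measured for 6 of 8 genes. With DMSO *EGR1* was at 5.20 and 5.97 CPM in siCtrl, 35.8 and 33.0 in siY/T and 9.56 and 9.27 CPM in siATF4 cells, and it was at most 0.748 CPM in the Sorafenib libraries. Its log2 change with Sorafenib was -3.07 after siCtrl, -4.99 after siY/T and -3.32 after siATF4. On 10 to 32 reads in Sorafenib libraries the log2(CPM + 0.5) scale understates these changes, and the log2 ratio of the mean CPM was -4.65, -5.82 and -4.26, with siCtrl and siATF4 in the other order. *IER2* changed by -0.88, -1.04 and -1.26 in the same order. Of these 6 genes, 3 fell and 1 rose with Sorafenib in siCtrl cells, against 5.15% and 12.3% of all genes, and 5 fell in siY/T as in siATF4 cells, against 4.14% and 2.95%, with medians of -0.59, -0.92 and -1.25. *EGR1*, *FOS* and *FOSB* would not have passed the filter on their Sorafenib libraries alone. The filter thus favoured a fall with the drug in these counts and medians. The medians of the 10 members in the same comparisons were 0.22, -0.24 and 0.38.

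Among 23 genes of actin filament dynamics, *GSN*, the filament-severing gelsolin, moved most. With DMSO it was at 111 and 118 CPM in siCtrl, 383 and 355 in siY/T and 41.1 and 38.0 CPM in siATF4 cells. With Sorafenib it was at 263 and 259 CPM in siCtrl, 486 in both siY/T and 90.1 and 86.3 CPM in siATF4 libraries. *GSN* thus changed by 1.69 and 0.89 on the log2 scale after siY/T and by -1.52 and -1.56 after siATF4, in DMSO and Sorafenib. *TMSB4X*, which encodes a protein that binds monomeric actin, rose by 0.68 in siY/T DMSO cells and changed by -1.03 and -0.96 in siATF4 cells. *TMSB10* fell by 0.84 in siATF4 cells in both media. Of the 23, 3 rose in siY/T DMSO cells, against 11.0% of all genes. In siATF4 cells 4 fell and 1 rose in DMSO, against 14.1% and 8.57%, and 3 fell and 1 rose in Sorafenib, against 18.7% and 10.3%. These shares were near those over all genes or below them. In the 14 genes of the focal adhesion plaque, *PARVA* and *NEXN* changed by -0.78 and -0.87 in siY/T DMSO cells, *TNS3* by -0.98 and -1.04 in siATF4 cells, and *NEXN* rose by 1.01 in siATF4 Sorafenib cells. List medians there were 0.00, -0.21, -0.07 and 0.06 after siY/T in DMSO and Sorafenib and after siATF4 in DMSO and Sorafenib.

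Close relatives of the members were tested for 13 of 19 genes. Most of the tested relatives, *ACTB* and *ACTG1* among them, also stand in the list of other MRTF/SRF targets. The counts of these lists are therefore not separate. *ACTG1*, a cytoplasmic actin, changed by -0.67 and -0.93 in siATF4 DMSO and Sorafenib cells, from 5973 and 5762 CPM to 3658 and 3700 CPM in DMSO, and *CNN3* fell by 0.68 in siATF4 DMSO cells. *ACTB* was among the 9 of 13 relatives whose siY/T effect was lower in Sorafenib than in DMSO, against 14.2% of all genes, with a difference of -0.58 for *ACTB* and 0 relatives higher, against 7.81%. In its libraries *ACTB* was at 5350 and 4840 CPM in siY/T DMSO and 3653 and 3344 CPM in siY/T Sorafenib cells, against 4600 and 4458 and 4629 and 4661 CPM in siCtrl DMSO and Sorafenib cells.

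**Figure D5:**
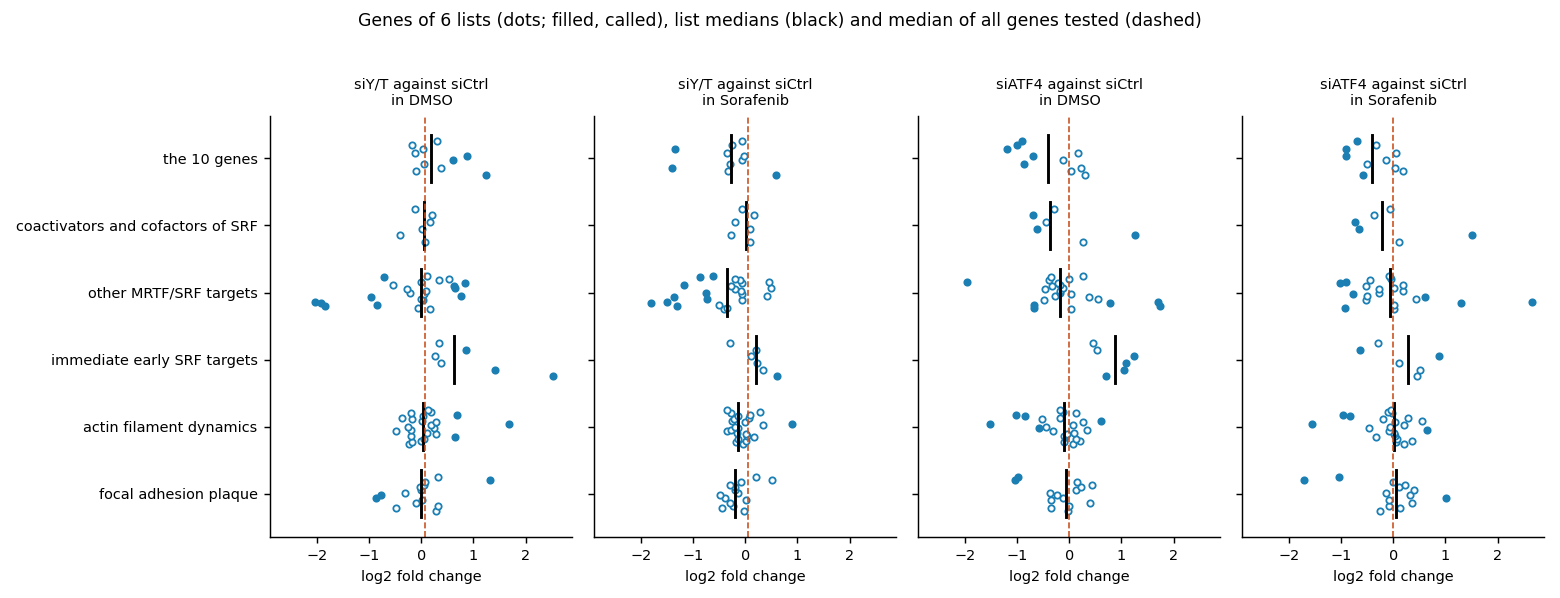
Log2 fold change (x axes) of each tested gene of the 10 described and of 5 pathway lists (y axis) in 4 comparisons, with called genes filled, list medians as black bars and the median of all genes tested as a dashed line. The 10 genes have medians of 0.18 and -0.28 after siY/T and -0.41 and -0.42 after siATF4, in DMSO and Sorafenib, against medians between -0.01 and 0.07 over all genes.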

How the data were processed

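RNA was sequenced from poly(A)-enriched, stranded libraries of HLE cells, with 2 libraries in each of 6 groups named in the labels. The authors mapped reads to hg19 with STAR, kept unique hits, counted them over RefSeq mRNA exons with QuasR 1.12.0 and deposited CPM without further scaling. The deposited CPM were whole multiples of 1 read for 100% of the values (tolerance 0.001 read), so reads were recovered for count tests. All columns were mapped, with 0 left over. RefSeq named 26111 of 26258 identifiers, and 147 stayed without a name. Positions came from GENCODE 44 on GRCh37, promoter sequences from RefSeq on GRCh38.p14.

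The 13515 genes that reached 1 CPM in 2 or more libraries entered a limma 3.58.1 fit (R 4.3.3) on log2(CPM + 0.5). It had a coefficient for each group, over all 12 libraries, and Benjamini-Hochberg adjustment over all genes. Calls needed an unadjusted two-sided p under 0.05 and a log2 change of at least 0.58, as in the study's methods, and differences between effects an adjusted p under 0.05. Besides the members, the text names from each list at most the 3 largest called changes per comparison among genes averaging 5 CPM or more whose libraries do not overlap, the siRNA targets, and the closest profiles. *FAS*, *PCSK7* and *AP3M1* are named for their overlap with members, *FOS* and *FOSB* for the filter on low values, and cell type markers as a description of the cells. Results of 1 further list are not reported here. The members and lists were chosen with earlier results of these data known. Alternatives were other pseudocounts, filters and scalings, a replicate block, a fit of the groups compared, stricter thresholds, each library left out, and edgeR 4.0.16 and DESeq2 1.42.0 on the recovered reads. The limma, edgeR and DESeq2 fits were tested on simulated data for siY/T against siCtrl in DMSO only. The differences between effects and the other steps were not tested in this way. Figures were drawn with Python 3.11.15 and matplotlib 3.10.9.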

Additional observations from a re-analysis of the deposited data

Results flagged for a closer look

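The effect of a knockdown on a member differed between Sorafenib and DMSO in 14 cases, each by limma's test of the difference itself with an adjusted p under 0.05. Over all genes, 14.2% were lower and 7.81% higher in this sense for siY/T. For siATF4 the shares were 21.8% and 19.3%, so differences of that kind were common in the whole table. For siY/T, the effect in Sorafenib minus that in DMSO was -0.22 on the log2 scale for *SRF*, -0.64 for *ACTA2*, -1.39 for *TAGLN*, -0.89 for *MYL9*, -1.78 for *CNN1*, -0.34 for *CNN2*, -0.36 for *VCL*, -0.67 for *FLNA* and -0.22 for *ACTN1*. For siATF4 it was -0.88 for *ACTA2*, -0.20 for *MYL9*, 0.37 for *CNN2*, 0.68 for *TPM1* and 0.21 for *VCL*. The calls of *SRF*, *ACTN1* and *ACTA2* for siY/T and of *MYL9* and *VCL* for siATF4 were lost when certain single libraries were left out. *CNN1* is the member to look at first, since siY/T went with more of it in DMSO, 25.9 and 23.7 against 18.7 and 19.5 CPM, and with less of it in Sorafenib, 13.0 against 34.3 and 36.7 CPM. *TAGLN* fell after siY/T in Sorafenib, with overlapping libraries in DMSO, and the fall of *TPM1* after siATF4 was smaller in Sorafenib. The siCtrl libraries enter every one of these differences.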

How the results depend on the processing

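Of 2409 values of single members under the alternatives, 2321 kept their direction and side of the threshold, 52 lost the call, 10 gained it and 26 changed sign, 0 of them with a call. The sign changes lay in 9 small values, given here on the log2 scale. For siY/T in DMSO, *TAGLN* (0.03) went to -0.0305 with TMM scaling, -0.0833 with quantile normalization, -0.0290 in edgeR, -0.0444 in DESeq2 and between -0.0368 and 0.0943 with a library left out, and *CNN2* (0.05) to -0.0109 with TMM scaling, -0.0107 in edgeR and -0.0255 in DESeq2. For siY/T in Sorafenib, *MYL9* went to 0.0404 with quantile normalization and between -0.0497 and 0.00135 with a library left out, and *VCL* to 0.000751 with quantile normalization. For siATF4 in Sorafenib, *CNN1* lay between -0.0211 and 0.0751 with a library left out. For Sorafenib in siCtrl cells, *SRF* went to -0.00174 with TMM scaling and in edgeR and to -0.0122 in DESeq2, and *ACTN1* to 0.0472 with quantile normalization and between -0.0499 and 0.00987 with a library left out. For Sorafenib in siATF4 cells, *ACTA2* went to -0.0222 with quantile normalization and between -0.0526 and 0.219 with a library left out. The *FLNA* difference of the siATF4 effects went to 0.125 with quantile normalization and between -0.0842 and 0.0393 with a library left out. Asking for an adjusted p with a change of at least 1 left 1 of 3 members in siY/T DMSO, 2 of 5 in siATF4 DMSO, 0 of 4 in siATF4 Sorafenib, 0 of 2 for Sorafenib in siCtrl, 1 of 2 in siY/T and 0 of 1 in siATF4 cells, and 3 of 7 and 2 of 4 for siATF4 against siY/T in DMSO and Sorafenib. That threshold is stricter by construction. A filter at 5 CPM left 1 of 2 for Sorafenib in siCtrl cells, since *ACTA2* was no longer tested. Leaving out each library in turn gave 1 to 2 members for Sorafenib in siATF4 cells and 3 to 6 for the difference of the siATF4 effects. The main fit did not pair libraries by replicate number. Correlations of the differences between replicates over 15 pairs of groups ran from -0.282 to 0.193 with 4 above 0.1, which cannot show whether replicates were paired. The fit with the replicate block left the counts at 3 and 3 members for siY/T in DMSO and Sorafenib, at 5 and 4 for siATF4 and at 9 for the difference of the siY/T effects. Quantile normalization moved the share of lowered genes among all called from 24.7% to 43.0% in siY/T DMSO, 64.6% to 51.5% in siATF4 Sorafenib, 29.5% to 47.7%, 41.5% to 53.1% and 34.2% to 45.3% for Sorafenib in siCtrl, siY/T and siATF4, and 63.7% to 48.4% and 61.5% to 48.5% for siATF4 against siY/T in DMSO and Sorafenib, where the median of all genes went from -0.06 to 0.07 in both. Per comparison of groups, limma called between 1167 and 5210 genes, edgeR between 1536 and 5569 and DESeq2 between 1490 and 5527. Depth limits *ACTA2*, with 26 to 121 reads per library.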
